A study of Homo sapiens with 6 samples.

Results

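The prostaglandin synthesis and receptor genes described here were the 10 rows of the deposited gene count table whose symbol was PTGS1, PTGS2, PTGES, PTGES2, PTGIS, PTGER2, PTGER3, PTGER4, PTGFR or HPGD, out of 60663 genes. The rule used their names and no measured value, but the members were chosen with earlier results of these data known. The libraries were bulk RNA-seq of CCD18Co cells, a line of human colon fibroblasts, after silencing of LTBP2, which encodes a secreted protein of the extracellular matrix. Cells of the 3 siLTBP2 libraries had received a small interfering RNA (siRNA) pool against LTBP2, and cells of the 3 siNT libraries a non-targeting pool. All cells were transfected for 6 h with Lipofectamine and were harvested 48 h later. The comparison thus rests on 1 cell line, 1 time point and 1 siRNA reagent per group. The labels do not say whether replicates were separate cultures, so the p-values measure the spread between these libraries, which may be technical.

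Prostaglandins are short-lived lipid signals. Phospholipases free arachidonic acid from membranes, the cyclooxygenases PTGS1 and PTGS2 turn it into prostaglandin H2, and terminal synthases make from that each active prostanoid, such as prostaglandin E2 or prostacyclin. The products leave the cell, act on G protein-coupled receptors of the same or of neighboring cells, and are inactivated by the dehydrogenase HPGD. Gut fibroblasts are a known source of prostaglandin E2, which is involved in mucosal repair, inflammation and colorectal tumor growth.

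Library totals were between 44663424 and 53576899 counts, so that 1 read was worth 0.0186 to 0.0229 CPM, the read count scaled to library size with the trimmed mean of M values (TMM). LTBP2, the silenced gene, was at 25.0, 23.1 and 21.2 CPM in the siNT libraries and at 6.49, 8.61 and 6.00 CPM in the siLTBP2 libraries, 30.4% of the siNT mean. All 10 fibroblast markers examined were detected, with summed levels of 9959 to 13222 CPM in siNT and 10098 to 14431 CPM in siLTBP2. The 8 epithelial markers, 3 of them without a read in any library, summed to at most 0.359 CPM and the 8 leukocyte markers to at most 0.930 CPM in any library. The 7 endothelial markers summed to 68.2 to 84.8 CPM in siNT and 61.3 to 75.6 CPM in siLTBP2, nearly all of it TEK (59.1 to 81.5 CPM), while the defining CDH5 reached at most 0.0380 CPM. Their part in the results below was not tested. In bulk RNA, fewer cells expressing a gene and less RNA per cell cannot be told apart.

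LTBP2 silencing left PTGS1 and PTGER2 within the spread of the libraries. The inducible enzymes PTGS2 and PTGES were lower, at 52.6% and 43.0% of their siNT means, and the receptors PTGER4 and PTGFR were higher, at 1.75 and 6.42 times theirs. PTGES2 was at 83.5% of its siNT mean and did not pass the test. PTGIS had no read in any library and HPGD had 3 reads in all 6. A gene was called risen or fallen at an adjusted p below 0.05 (edgeR quasi-likelihood test, Benjamini-Hochberg adjustment over all 16920 genes that passed the filter on low counts). Of the 10 genes, 7 passed that filter. PTGER4 and PTGFR rose, and PTGS2 and PTGES fell, where 9.76% of all tested genes rose and 9.51% fell. Under the thresholds of the study's methods for deregulated genes, an adjusted p under 0.01 together with more than a 2-fold change, PTGFR was deregulated upwards and PTGES downwards, where 1.29% and 1.27% of all tested genes were. PTGFR passed the filter on low counts only through its siLTBP2 libraries, and the members were chosen with earlier results known. These counts and those that follow are thus a description. Where 1 CPM was required in 3 libraries, PTGFR was not tested and PTGES was the 1 deregulated member. The groups did not overlap in 2 tested members that were higher and 3 that were lower in siLTBP2, against 18.7% and 18.3% of all tested genes. The median log2 fold change was −0.09 over the 7 tested members and −0.0056 over all tested genes, while the median size of the change regardless of sign was 0.81 and 0.23 on the log2 scale.

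**Figure D1:**
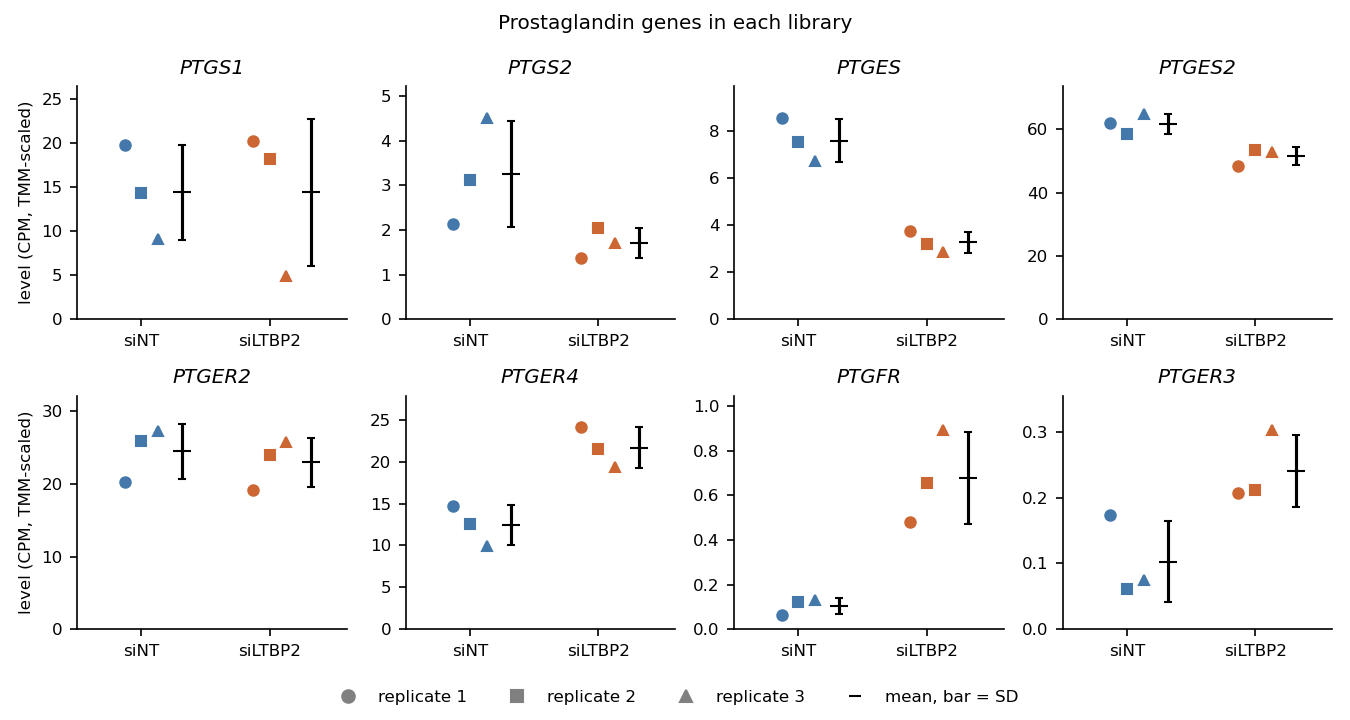
Level in TMM-scaled CPM (y axis, linear, from 0, a separate scale per gene) of the 8 members with more than 3 reads in all, in each siNT and siLTBP2 library (x axis); symbols mark the replicate and black bars the mean with its SD (n = 3). The siLTBP2 points lie below all siNT points for PTGS2, PTGES and PTGES2, above them for PTGER4, PTGFR and PTGER3, and the groups overlap for PTGS1 and PTGER2.

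The 2 cyclooxygenases differed in how they varied. PTGS1 (ENSG00000095303, chr9:122370530-122395703 in GRCh38, plus strand), the constitutive enzyme, was at 19.8, 14.4 and 9.07 CPM in siNT and at 20.2, 18.1 and 4.86 CPM in siLTBP2. Its level was lowest in replicate 3 of each group, and the siLTBP2 values enclosed the siNT values. The means were 14.4 ± 5.38 and 14.4 ± 8.33 CPM (SD, n = 3 each), with a log2 fold change of −0.0041 (SE 0.42, edgeR adjusted p = 0.996). The 95% confidence interval of that change, −0.94 to 0.93, included changes in either direction as large as the one measured for PTGS2.

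PTGS2 (ENSG00000073756, chr1:186671791-186680922, minus strand) encodes the inducible cyclooxygenase, the target of anti-inflammatory drugs such as celecoxib. Its mRNA is known to be short-lived, and its 3′ UTR (2562 bases in the GENCODE 44 canonical transcript) held 22 copies of the pentamer AUUUA, the core of AU-rich elements. At least as many copies were found in 2.92% of 12314 genes whose 3′ UTR had 50 bases or more, with a median of 2 copies. PTGER4 held 9 copies and PTGFR 11, PTGER2 and HPGD 5 each, PTGS1 3, PTGIS and PTGER3 2 each, PTGES 1 and PTGES2 none. As the 3′ UTRs differ in length, copies per kilobase gave another order. These were 8.59 in PTGS2, 6.63 in PTGER4, 4.37 in PTGER2, 2.81 in HPGD, 2.74 in PTGFR and 2.11 in PTGER3. PTGS1 had 0.95, PTGES 0.79 and PTGIS 0.49, with a median of 1.76 over the 12314 genes. Of the 12314 genes, 74.3% held at least 1 copy. A stretch with overlapping copies is shown for PTGS2, which fell, and for PTGER4, which rose, with each copy (ATTTA in the genome) in capitals and both written 5′ to 3′ on the strand of the gene. For PTGES, which also fell, the only copy is shown beside them.
PTGS2, chr1:186674319-186674348, minus strand: ctaatgatcatATTTATTTATTTAtatgaa
PTGER4, chr5:40693152-40693181, plus strand: agtgatattacATTTATTTAtccagaaaac
PTGES, chr9:129739242-129739271, minus strand: agggagactctATTTAagattcccaaacct
Whether the pentamer has a part in these changes was not tested. These matches are letters and not tested sites.

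PTGS2 reads were few under both conditions. It was at 2.14, 3.12 and 4.51 CPM in siNT and at 1.38, 2.05 and 1.71 CPM in siLTBP2. The groups did not overlap, but the lowest siNT library was only just above the highest siLTBP2 library. The mean fell from 3.26 ± 1.19 to 1.71 ± 0.337 CPM (SD, n = 3 each), a log2 fold change of −0.93 (SE 0.27, 95% interval −1.53 to −0.33, edgeR adjusted p = 0.0366). Its call was lost when siNT replicate 2 or 3 was left out (edgeR adjusted p = 0.0853 and 0.132) or any of siLTBP2 replicates 1, 2 and 3 (edgeR adjusted p = 0.0989, 0.0546 and 0.0544), and it held when siNT replicate 1 was (0.0136). The log2 fold change ranged from −1.16 to −0.62 over these 6 fits. PACERR, an antisense RNA that shares 219 exon bases with PTGS2, had 1 to 8 reads per library. A gene and its antisense partner can be told apart only where the counting used the strand, which was not stated for these counts.

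The promoter of PTGS2 is known to hold a cAMP response element overlapping an E-box. The full 8-letter element TGACGTCA was in no member's promoter window (250 bases before to 50 after the start, RefSeq, GRCh38.p14; 8 of 10 members matched an entry) and in 1.85% of 35116 windows. In PTGS2 its shorter form CGTCA started 58 bases before the gene start, and overlapped the E-box letters CANNTG. This stretch is shown because it is the part of the promoter most often tied to induction, with both words in capitals, on the strand of the gene.
PTGS2 promoter, chr1:186680463-186680492, minus strand: aacagtcatttCGTCACATGggcttggttt
CGTCA was found on either strand in 24.55% of all windows and CANNTG in 68.68%. Among the other members, CGTCA was found in the windows of PTGER2 and HPGD. The NF-kB motif, in 11.27% of all windows, was found in those of PTGER4, PTGER2 and HPGD. It was not in the PTGS2 window, which says nothing of sequence more than 250 bases before the start. These promoter matches, too, are letters and not tested sites.

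As the 2 cyclooxygenases use the same substrate, their reads were also set against each other within each library, which needs no normalization. PTGS2 gave 9.74% (95% interval 7.99 to 11.7), 17.8% (15.3 to 20.5) and 33.2% (29.8 to 36.7) of the PTGS1 and PTGS2 reads in siNT. It gave 6.38% (4.90 to 8.13), 10.2% (8.31 to 12.3) and 26.0% (21.5 to 31.0) in siLTBP2. These exact binomial intervals cover counting error only. PTGS2 thus made up the smaller share of cyclooxygenase reads in all 6 libraries, and its share was highest in replicate 3 of each group, where PTGS1 was lowest. The mean log2 ratio of PTGS2 to PTGS1 was −2.14 in siNT and −2.83 in siLTBP2, a difference of −0.70 that did not exceed the spread between libraries (two-sided exact permutation p = 0.6, where 3 against 3 libraries cannot go below 0.1). In replicate order, the log2 ratio was −3.2, −2.2 and −1.0 in siNT and −3.9, −3.1 and −1.5 in siLTBP2. It was thus lower in siLTBP2 at each replicate number, which this test of unpaired libraries did not use. The ratio compares reads and not molecules, as the transcripts differ in length.

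**Figure D2:**
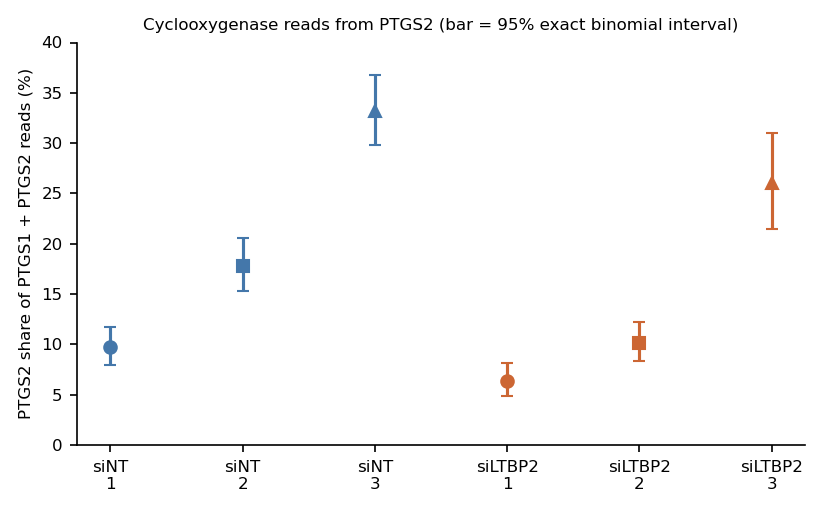
Share of the PTGS1 and PTGS2 reads of each library that came from PTGS2 (y axis, percent), by group and replicate (x axis); points are single libraries and bars the 95% exact binomial interval, which covers counting error only. Replicate 3 stands highest in both groups (33.2% in siNT and 26.0% in siLTBP2), and the ranges of the groups overlap.

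Of the prostaglandin E synthases, the inducible PTGES was the one that passed the test. PTGES (ENSG00000148344, chr9:129738331-129753042, minus strand) encodes the microsomal enzyme that is usually induced together with PTGS2. It was at 8.54, 7.49 and 6.70 CPM in siNT and at 3.74, 3.19 and 2.85 CPM in siLTBP2. Every siLTBP2 library was well below every siNT library. The mean fell from 7.58 ± 0.926 to 3.26 ± 0.450 CPM (SD, n = 3 each), a log2 fold change of −1.22 (SE 0.16, 95% interval −1.58 to −0.86, edgeR adjusted p = 6.3e-04). The change was between −1.32 and −1.12 on the log2 scale when any 1 library was left out.

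PTGES2 (ENSG00000148334, chr9:128120693-128128462, minus strand), a second membrane-associated prostaglandin E synthase that is expressed constitutively, was at 61.9, 58.6 and 64.9 CPM in siNT and at 48.4, 53.5 and 52.8 CPM in siLTBP2. The groups did not overlap, but the difference was small, with means of 61.8 ± 3.15 and 51.6 ± 2.78 CPM (SD, n = 3 each). Its log2 fold change was −0.26 (SE 0.085, 95% interval −0.45 to −0.07), with an edgeR adjusted p of 0.0565, and it passed with upper-quartile factors (0.0364), with total counts (0.0328) and where 1 CPM in at least 3 libraries was required (0.0381). PTGES3, the cytosolic prostaglandin E synthase that also serves as an HSP90 co-chaperone, had means of 333 ± 13.7 and 372 ± 19.5 CPM (SD, n = 3 each; log2 fold change 0.16, edgeR adjusted p = 0.225).

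PTGIS (ENSG00000124212, chr20:49503874-49568137, minus strand), the prostacyclin synthase, had 0 reads in each of the 6 libraries, which allows a level of up to 3 reads, or 0.0556 to 0.0688 CPM depending on the library. HPGD (ENSG00000164120, chr4:174490175-174523154, minus strand), the dehydrogenase that inactivates prostaglandin E2, had 0, 0 and 1 reads in siNT and 0, 2 and 0 in siLTBP2. Neither was tested, and no fold change can be given at this depth. Their planned ratios to PTGES were not computed for the same reason. Neither prostacyclin synthase nor the catabolic dehydrogenase was thus measurable beside PTGES in these fibroblasts.

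Of the 2 prostaglandin E2 receptors that are coupled to Gs proteins and raise cAMP, PTGER4 rose and PTGER2 did not pass the test. PTGER2 (EP2; ENSG00000125384, chr14:52314305-52328598, plus strand) was at 20.2, 25.9 and 27.3 CPM in siNT and at 19.2, 23.9 and 25.8 CPM in siLTBP2. The groups overlapped, with means of 24.5 ± 3.75 and 23.0 ± 3.37 CPM (SD, n = 3 each). The log2 fold change was −0.09 (SE 0.14, edgeR adjusted p = 0.707), and its 95% interval of −0.40 to 0.22 did not reach the change of PTGER4.

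PTGER4 (EP4; ENSG00000171522, chr5:40679915-40693735, plus strand) was at 14.7, 12.5 and 9.98 CPM in siNT and at 24.2, 21.6 and 19.3 CPM in siLTBP2. All siLTBP2 libraries were above all siNT libraries. The mean rose from 12.4 ± 2.38 to 21.7 ± 2.42 CPM (SD, n = 3 each), a log2 fold change of 0.81 (SE 0.15, 95% interval 0.48 to 1.13, edgeR adjusted p = 0.0041). It was between 0.67 and 0.94 when any 1 library was left out. TTC33, whose gene body spans PTGER4 on the other strand without sharing exon bases, went the other way, from 21.5 to 12.8 CPM (log2 fold change −0.75, edgeR adjusted p = 0.0051).

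The log2 ratio of PTGER4 to PTGER2 reads was −0.46, −1.05 and −1.45 in siNT and 0.33, −0.15 and −0.41 in siLTBP2. It was higher in every siLTBP2 library than in any siNT library. The difference of 0.91 reached the smallest p that 3 against 3 libraries allow (two-sided exact permutation p = 0.1).

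PTGER3 (EP3; ENSG00000050628, chr1:70852353-71047816, minus strand), the receptor that mainly couples to Gi and lowers cAMP, had 8, 3 and 4 reads in siNT and 9, 10 and 16 in siLTBP2. The groups did not overlap, although siNT replicate 1 and siLTBP2 replicate 1 differed by a single read. Too few reads were counted for the filter, and PTGER3 was therefore not tested. The summed reads, 15 and 35, gave a ratio of 2.43 for equal depth, with a 95% interval of 1.29 to 4.79 that covers counting error only. Without a filter on low counts its log2 fold change was 1.23 (edgeR adjusted p = 0.155).

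PTGFR (FP; ENSG00000122420, chr1:78303884-78540701, plus strand), the receptor of prostaglandin F2α that signals through Gq and calcium, was barely detected in siNT. It had 3, 6 and 7 reads in siNT and 21, 31 and 47 in siLTBP2, which is 0.0649, 0.122 and 0.130 CPM against 0.482, 0.656 and 0.892 CPM. Every siLTBP2 library was far above the highest siNT library. The mean went from 0.105 ± 0.0354 to 0.676 ± 0.206 CPM (SD, n = 3 each), a log2 fold change of 2.65 (SE 0.40, 95% interval 1.77 to 3.53, edgeR adjusted p = 0.0013). The summed reads, 16 and 99, gave a ratio of 6.44 for equal depth (95% interval 3.78 to 11.7, counting error only). Even in siLTBP2 its level stayed under 1 CPM. PTGFR entered the test only through its siLTBP2 libraries, so its fold change, interval and p-value are a description.

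The order of the members was read from CPM per kilobase of all annotated exons, since longer transcripts give more reads. In siNT, PTGES2 (10.2 ± 0.517 CPM per kilobase) and PTGER2 (9.93 ± 1.52) came first with overlapping ranges. PTGES (4.01 ± 0.490) and PTGER4 (3.50 ± 0.671) followed and overlapped, and so did PTGER4 and PTGS1 (2.49 ± 0.930). PTGS2 (0.594 ± 0.217) was below all of these, and PTGFR (0.0183) and PTGER3 (0.00998) were lowest of the genes with more than 3 reads in all. In siLTBP2, PTGER4 stood at 6.12 ± 0.684 and PTGES at 1.72 ± 0.238 CPM per kilobase, so that the synthase and the receptor, overlapping in siNT, were clearly apart. PTGES then overlapped with PTGS1 (2.49 ± 1.44). With the length of the canonical transcript, PTGES2 alone came first in siNT (38.7), and PTGER3 (0.0435) stood above PTGFR (0.0194).

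**Figure D3:**
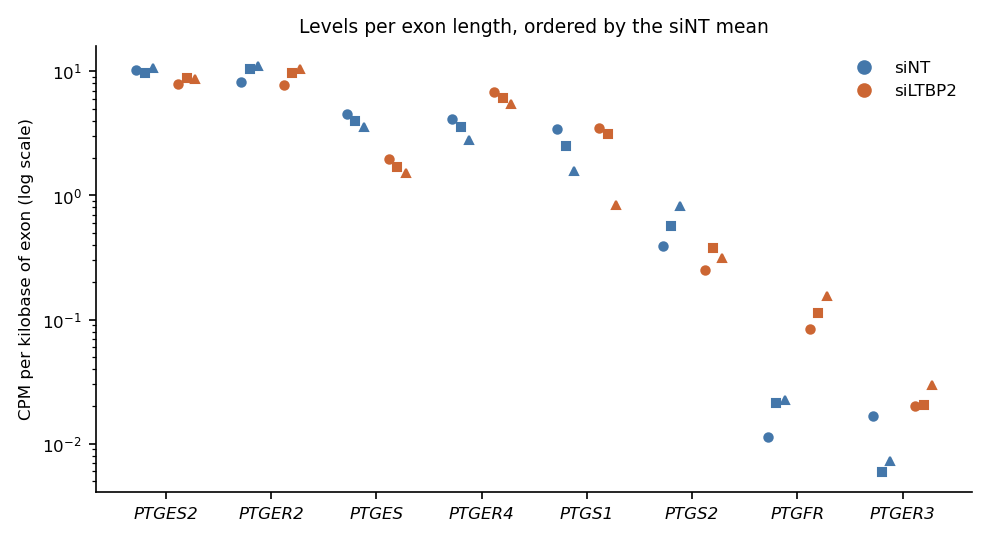
TMM-scaled CPM per kilobase of annotated exon (y axis, log scale) of the 8 members with more than 3 reads in all, ordered by their siNT mean (x axis); each point is a library, symbols mark the replicate and colors the group. PTGES and PTGER4 overlap in siNT and are apart in siLTBP2, and PTGFR and PTGER3 reach at most 0.155 and 0.0295 CPM per kilobase in any library.

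The other genes of the pathway were read from 5 lists (arachidonate release and activation, other synthases, other receptors, transport and breakdown, and the lipoxygenase and epoxide branches) of 62 genes, 61 of them in the table. Of these, 39 were tested, with a median log2 fold change of −0.08. Of the 39, 2 rose and 10 fell, where 9.76% and 9.51% of all tested genes did. With siNT replicate 1, siNT replicate 2 or siLTBP2 replicate 1 left out, 7 were called in place of these 12. Of 15 tested genes of arachidonate release and activation, 4 fell and 1 rose, beside the same shares of all tested genes. PLA2G4A, the cytosolic phospholipase A2 that supplies the cyclooxygenases, was at 10.7, 11.1 and 14.4 CPM in siNT and at 5.05, 4.72 and 4.86 CPM in siLTBP2 (log2 fold change −1.31, SE 0.15, edgeR adjusted p = 2.4e-04). Its groups were far apart. The phospholipases PLA2G4C (−0.85) and PLA2G6 (−0.67) and the diacylglycerol lipase DAGLA (−0.83) also fell, each with an edgeR adjusted p between 0.026 and 0.031. PLA2G4C lost its call when siNT replicate 1 or 3 or siLTBP2 replicate 1 or 2 was left out (edgeR adjusted p = 0.0819, 0.0616, 0.0534 and 0.106). DAGLA and PLA2G6 each lost theirs when siNT replicate 1 or 2 or siLTBP2 replicate 1 or 3 was left out, with edgeR adjusted p of 0.0592 to 0.111 for DAGLA and 0.0635 to 0.0994 for PLA2G6. PLA2G6 shares 326 exon bases with MAFF on the other strand, which went up by 1.08 on the log2 scale. ABHD12, a lipase of the endocannabinoid and lysophospholipid pathways named after its value was seen, was the 1 gene of this list that rose (log2 fold change 0.54, edgeR adjusted p = 0.0022).

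Of the 6 tested other prostanoid synthases, 2 fell, where 9.51% of all tested genes did. TBXAS1, the thromboxane synthase, was at 68.9, 76.3 and 63.2 CPM in siNT and at 32.5, 37.2 and 27.2 CPM in siLTBP2 (log2 fold change −1.11, SE 0.12, edgeR adjusted p = 2.3e-04). All its siLTBP2 libraries were well below the lowest siNT library. AKR1C3, a reductase that makes prostaglandin F from other prostaglandins and also reduces steroids, was at 22.1 and 14.9 CPM on average (log2 fold change −0.57, edgeR adjusted p = 0.019), a call that was lost without siNT replicate 2 (0.0795) or siLTBP2 replicate 1 (0.0508). AKR1B1 (log2 fold change −0.06), CBR1 (0.01) and PRXL2B (−0.13), which also act on prostaglandin H2 or E2, did not pass. PTGDS had 1 read in all libraries together and HPGDS none, so no prostaglandin D synthase was measurable.

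Of the 4 tested other prostanoid receptors, PTGER1 fell, where 9.51% of all tested genes did. This EP1 receptor, which signals through calcium, was at 2.49, 1.56 and 1.35 CPM in siNT and at 1.17, 0.592 and 0.797 CPM in siLTBP2 (log2 fold change −1.08, SE 0.31, edgeR adjusted p = 0.034). The call was lost when siNT replicate 1 (0.127) or 2 (0.0651) was left out, and when siLTBP2 replicate 2 (0.121) or 3 (0.0627) was. The prostacyclin receptor PTGIR (log2 fold change 0.27, edgeR adjusted p = 0.479), the thromboxane receptor TBXA2R (−0.04, 0.873) and the prostaglandin D2 receptor PTGDR2 (−0.38, 0.689) did not pass. PTGDR had 0 reads, and PTGFRN, a membrane protein that binds the PTGFR product, had 1 read in all libraries together. The 4 EP receptors thus held 1 gene that rose (PTGER4), 1 that fell (PTGER1), 1 that did not pass (PTGER2) and 1 that was not tested (PTGER3).

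Of 7 tested genes of prostaglandin transport and breakdown, 1 fell, where 9.51% of all tested genes did. ABCC4, which exports prostaglandin E2 among other anions, was at 515, 460 and 451 CPM in siNT and at 371, 337 and 296 CPM in siLTBP2 (log2 fold change −0.51, SE 0.11, edgeR adjusted p = 0.0078). It kept its call in each fit without 1 library.

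**Figure D4:**
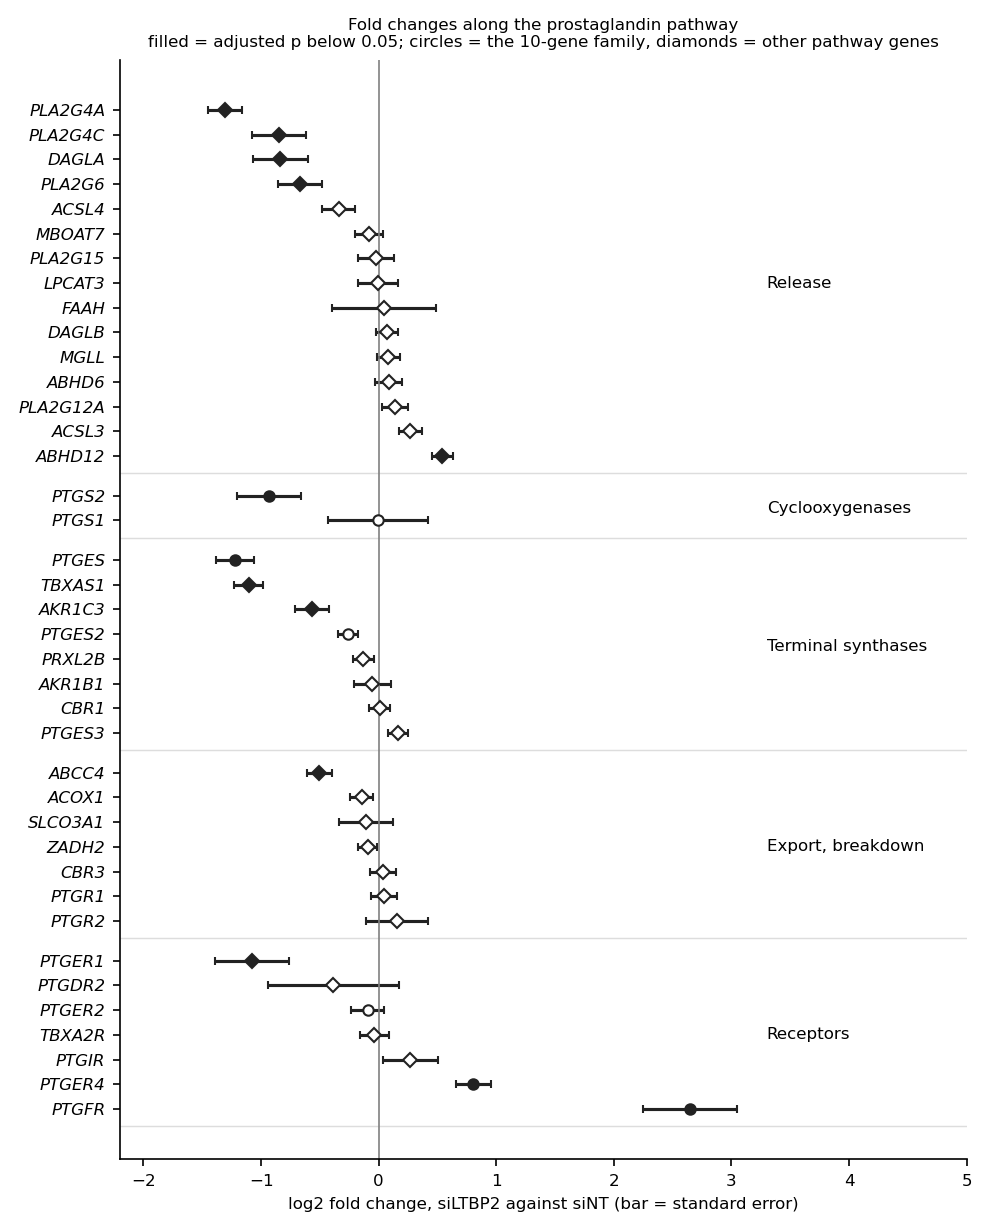
Log2 fold change of siLTBP2 against siNT (x axis, bars are the SE from edgeR) for the 7 tested members (circles) and the 32 tested genes of 4 pathway lists (diamonds), grouped by step and sorted within each group; filled symbols passed an adjusted p of 0.05. PLA2G4A, PTGES, TBXAS1 and PTGER1 lie below −1, and PTGER4 and PTGFR are the receptors to the right of 0 that passed.

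The EP2 and EP4 receptors act through cAMP, and a list of 20 genes known to respond to cAMP and CREB was therefore read beside them. Of 18 tested genes, 5 rose and 1 fell, where 9.76% and 9.51% of all tested genes did (median log2 fold change 0.23). HAS2, a hyaluronan synthase, was at 8.995, 7.31 and 8.46 CPM in siNT and at 23.7, 26.7 and 37.8 CPM in siLTBP2 (log2 fold change 1.83, edgeR adjusted p = 9.9e-05). Its antisense partner HAS2-AS1, with 251 shared exon bases, had a log2 fold change of 0.07 (edgeR adjusted p = 0.865). The anchoring protein gene AKAP12 rose (0.75, edgeR adjusted p = 0.0056), and RGS2, an early cAMP-induced inhibitor of Gq signaling, fell (−1.06, 0.0026). CREM, a cAMP-responsive transcription factor (0.52, edgeR adjusted p = 0.0060), CEBPB (0.59, 0.015) and the phosphodiesterase gene PDE7B (0.62, 0.020) also rose. PDE7B lost its call when siNT replicate 1 (0.0725) or siLTBP2 replicate 2 (0.0697) was left out. On the other strand, CREM shares 191 exon bases with CUL2, CEBPB 231 with CEBPB-AS1 and PDE7B 452 with PDE7B-AS1. These partners did not pass (log2 fold changes 0.23, −0.25 and 0.54). The other 12 tested genes of the list, named after their values were seen, did not pass. Of these, NR4A3 (−0.61), FOSB (−0.45), PDE4A (−0.35), NR4A1 (−0.30), PDE4D (−0.11) and PER1 (−0.06) had negative log2 fold changes. AREG (0.64), FOS (0.52), DUSP1 (0.43), PDE4B (0.31), SIK1 (0.15) and NR4A2 (0.09) had positive ones. Whether cAMP signaling differed was not tested.

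The cytokine and NF-kB list, with known inducers of PTGS2 and genes induced along with it, was read last. Of 19 tested genes, 7 fell and 1 rose, where 9.51% and 9.76% of all tested genes did (median log2 fold change −0.21). IL6 was at 25.0, 32.4 and 32.7 CPM in siNT and at 6.40, 7.91 and 9.55 CPM in siLTBP2 (log2 fold change −1.91, edgeR adjusted p = 5.7e-05), and its antisense partner IL6-AS1 was at −0.54 without passing (0.149). LIF, a cytokine of the same family, fell as well (−1.43, edgeR adjusted p = 3.5e-05), as did its antisense neighbor LIF-AS2 (−1.22), which shares 83 exon bases with it. The chemokine gene CXCL1 (−1.32, edgeR adjusted p = 0.012) lost its call when siNT replicate 2 (0.0575) or siLTBP2 replicate 2 (0.0538) was left out. IRAK1 (−0.95, edgeR adjusted p = 7.1e-04), TNFAIP3 (−0.79, 0.012), NFKB2 (−0.37, 0.024) and MAP3K8 (−0.87, 0.030), named after their values were seen, also fell. IRAK1 and TNFAIP3 kept their calls in each fit without 1 library. NFKB2 lost its call when siNT replicate 3 or siLTBP2 replicate 1 or 2 was left out (edgeR adjusted p up to 0.0992), and MAP3K8 when siNT replicate 1 or 3 or siLTBP2 replicate 2 was (up to 0.110). IL1RAP, the co-receptor of interleukin 1, was the 1 gene that rose (0.99, edgeR adjusted p = 5.8e-04). IL1B (log2 fold change −0.43, edgeR adjusted p = 0.199), the classical inducer of PTGS2, and CXCL8 (0.10, 0.926) did not pass.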

How the data were processed

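RNA was sequenced from stranded, ribosomal RNA-depleted libraries. The deposited table holds raw counts per gene that the authors made, with STAR 2.7.1a, HTSeq 0.11.2 and GRCh38 named in the submitters' processing notes. How strand was handled in counting, and the annotation release, are not given in the sources used. Counts were tested with edgeR 4.0.16 in R 4.3.3 (filterByExpr, TMM factors, glmQLFit and glmQLFTest, two-sided, siLTBP2 against siNT, no covariates), with Benjamini-Hochberg adjustment over 16920 genes; 27067 genes were 0 in every library. The study's methods used the likelihood ratio test, which is an alternative here. CPM were computed with TMM factors. Single values and ratios (0.5 added to each count) were compared by exact permutation over libraries. Replicates within a group differed beyond sampling noise (chi-square per degree of freedom 24.6 to 48.1). Members and lists were chosen with earlier results of these data known. Named were all members, all genes of the synthase and receptor lists, genes overlapping a member, LTBP2, and at most the 4 largest changes of each other list. IL1B, CXCL8, CREM, CEBPB, IRAK1, TNFAIP3, NFKB2 and MAP3K8 were chosen after their values were seen. Exons and 3′ UTRs came from GENCODE 44 (95.7% of 60462 shared gene IDs have the same start) and promoters from RefSeq. Code was tested on simulated data.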

Additional observations from a re-analysis of the deposited data

How the results depend on the processing

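PTGES and PTGER4 kept their calls in all 14 other fits, and PTGFR in the 13 that tested it. PTGS2 kept its call in 9 of 14 and lost it only in fits without 1 library. A filter of 1 CPM in 3 libraries removed PTGFR and left 1 deregulated member in place of 2. Leaving out 1 library gave 3 to 4 changed members and 7 to 11 changed genes of the 5 pathway lists. PTGS1 changed sign without siNT replicate 1 (0.29) and without siLTBP2 replicate 3 (0.42), its log2 fold change ranging from −0.33 to 0.42, and PTGER2 without siLTBP2 replicate 1 (0.022), from −0.22 to 0.022. The ratio of PTGS2 to PTGS1 ranged from −1.36 to −0.13 and that of PTGER4 to PTGER2 from 0.67 to 1.17. Same-numbered libraries deviated together with correlations of 0.30, 0.08 and 0.43, and as 1 of these is under 0.1 the samples were treated as unpaired. With the replicate block, 5 members changed, with PTGES2 added (adjusted p = 0.0060), and 15 genes of the pathway lists. Over all genes the block gave 6131 changed genes against 3261. No low-count filter gave 680 deregulated genes against 434, and the likelihood ratio test gave 619. Over all fits of the 7 tested members, 5 calls were lost (all PTGS2), 4 gained (all PTGES2), 3 reversed and 85 unaltered. For 30 genes of the other lists that passed the test, 44 calls were lost over these fits and 376 held. Scalings moved the median of all genes by at most 0.04 log2 units. Depth limits PTGFR, PTGER3, HPGD and PTGIS, as 1 read was 0.0186 CPM or more.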

Other observations

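The lipoxygenase and epoxide branches, which also use arachidonic acid, were mostly silent: 12 of 19 genes were not tested, and ALOX5, ALOX12B, ALOX15B and CYSLTR2 had no read. GPX4, which reduces lipid hydroperoxides, fell (log2 fold change −0.99, edgeR adjusted p = 9.9e-05), as did EPHX1, a microsomal epoxide hydrolase (−0.45, 0.024), and CYP1B1 rose (0.59, 0.021). EPHX1 lost its call when siNT replicate 1 or 3 or siLTBP2 replicate 2 was left out (edgeR adjusted p up to 0.0826), and CYP1B1 with siNT replicate 2 or 3 or siLTBP2 replicate 1 or 3 left out (up to 0.0709). EPHX1 shares 28 exon bases with TMEM63A and CYP1B1 96 with RMDN2, both on the other strand.

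Of 12 tested genes for proteins that bind or regulate the AU-rich PTGS2 message, 3 rose and none fell. Over all tested genes, 9.76% rose and 9.51% fell. ZFP36L2, which promotes decay of such messages, rose by 0.54 on the log2 scale (edgeR adjusted p = 0.0051). ZFP36L2 shares 826 exon bases with a gene on the other strand, whose log2 fold change was 0.62 (edgeR adjusted p = 0.188). CELF2, known to stabilize PTGS2 mRNA while holding back its translation, was 0.75 higher (0.023) and KHSRP, a decay factor, 0.35 higher (0.030). CELF2 lost its call when siNT replicate 2 or 3 or siLTBP2 replicate 1 or 2 was left out (edgeR adjusted p up to 0.0796), and KHSRP in each fit without 1 library except siNT replicate 3 (up to 0.0921). ZFP36 (0.26, 0.132) and ELAVL1 (0.11, 0.413), chosen after their values were seen, did not pass. Of 3 tested antisense or neighboring RNAs and pseudogenes of the members, TTC33 fell, and the PTGES3 pseudogenes PTGES3P1 (0.02, 0.957) and PTGES3P2 (0.29, 0.552) did not pass.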
